A study of Solanum lycopersicum and Solanum pennellii and Solanum pimpinellifolium with 52 samples.

Results

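The 60 genes described here were low in seedlings of cultivated tomato and higher in seedlings of each of 3 wild relatives. They were chosen from the seedling values themselves, out of 28298 gene models in the deposited table. For each gene the smallest of the 3 wild species means was set against the S. lycopersicum mean, as a log2 ratio after 1 RPKM was added to both, and the 60 highest scores were kept. RPKM is the read number of a gene model divided by the length of that model and by how many reads the library held. The seedling values chose the genes, so they are given below as a description, and differences between species were tested only in a separate set of libraries from 6 tissues.

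The seedling libraries came from S. pimpinellifolium LA1589, S. habrochaites LA1777, S. pennellii LA716 and S. lycopersicum LA3475, with 7 libraries per species, grown on plates under standard light. LA3475 is the cultivar M82, an inbred processing tomato. The tissue libraries held S. pennellii LA716 and S. lycopersicum LA3475, each as root, stem, leaf, inflorescence, vegetative meristem and whole seedling. Each tissue was sampled once under a shade treatment, with red over far-red light at 0.48, and once under a sun treatment, at 3.1, both averaging 95 µE. That makes 24 tissue libraries with 1 library per combination of species, tissue and light. Each species is represented by 1 accession, and the labels do not say whether libraries came from separate plants or from pools. The p-values therefore measure only the spread between these libraries. No combination was repeated, so that spread is how far the shade and sun libraries of a tissue differ beyond a light effect shared by tissues. It may be technical, and a light response of single tissues would count in it too.

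Cultivated tomato descends from red-fruited relatives close to S. pimpinellifolium, whereas S. habrochaites and S. pennellii are green-fruited and more distant. A gene that is low in the cultivated species and present at a higher level in all 3 wild species sets the cultivated line used here apart from relatives on both sides of the fruit-colour divide. A transcript level in a whole organ is an average over all of its cells, so fewer cells of a type and less RNA per cell cannot be told apart. The table names genes by ID alone, and a match against RefSeq genes (assembly SLM_r2.1) found 0 of these IDs. The genes are therefore given by ID, at most 2 per direction in a comparison, with no statement of their function, and the tissue labels were not checked against marker genes.

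Library totals, recovered from the steps of the RPKM values, ran from 1477052 to 5556059 reads. At the median gene length of 918 bases and the median total, 1 RPKM stood for 2.12 reads, so values under a few RPKM rest on few reads. The implied length of the 60 genes had a median of 637.5 bases and ran from 124 to 2481 bases.

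In standard-light seedlings, the mean level of a gene over the 60 genes had a median of 11.5 RPKM in S. pimpinellifolium, 8.77 RPKM in S. habrochaites and 16.9 RPKM in S. pennellii, against 1.07 RPKM in S. lycopersicum. The scores ran from 1.25 to 6.63 with a median of 1.71. A score of at least 2 was reached by 22 of the genes and a score of at least 3 by 9. In the cultivated species 30 of the 60 genes averaged under 1 RPKM, and 12 had 0 reads in all 7 libraries. At the other end, 4 genes averaged at least 10 RPKM in S. lycopersicum, so the list also holds genes that were well detected there.

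The highest score belonged to Solyc12g088180.1.1. Its lowest, median and highest library had 88.9, 131 and 254 RPKM in S. pimpinellifolium, 304, 577 and 788 RPKM in S. habrochaites, and 229.8, 318 and 556 RPKM in S. pennellii, against 0, 0 and 2.26 RPKM in S. lycopersicum. All 21 wild libraries lay above all 7 S. lycopersicum libraries, which together held 5 reads of this gene. The second score, 5.33, belonged to Solyc06g048530.2.1. Its lowest, median and highest library had 48.3, 58.4 and 62.8 RPKM in S. pimpinellifolium, 38.1, 52.4 and 65.0 RPKM in S. habrochaites, and 65.2, 74.8 and 84.5 RPKM in S. pennellii, against 0, 0 and 0.780 RPKM in S. lycopersicum. The 3 wild species were close to each other at this gene, and the cultivated libraries held 3 reads in total.

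The other end of the list was less clear. The last genes inside it, Solyc09g005520.2.1 and Solyc06g072240.1.1, both scored 1.25. The first averaged 28 RPKM in S. pimpinellifolium, 8.71 RPKM in S. habrochaites and 10.9 RPKM in S. pennellii, against 3.08 RPKM in S. lycopersicum, and its lowest S. pennellii library, at 0.944 RPKM, was below every cultivated library. The genes just outside, Solyc09g010740.2.1 and Solyc10g045240.1.1, scored 1.25 and 1.22. Solyc10g045240.1.1 had means of 104 RPKM in S. pimpinellifolium, 120.5 RPKM in S. habrochaites and 127 RPKM in S. pennellii, against 44.3 RPKM in S. lycopersicum. In the table as a whole 101 genes scored at least 1, so the limit at 60 falls within a continuous run of scores.

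The wild species differed among themselves at these genes. S. pennellii had the highest mean of the 3 in 31 genes, S. pimpinellifolium in 18 and S. habrochaites in 11. The smallest wild mean, which set the score, came from S. habrochaites in 30 genes, from S. pimpinellifolium in 17 and from S. pennellii in 13. The 3 wild means lay within 2-fold of each other in 33 genes and spanned over 5-fold in 11. In 31 of the 60 genes all 21 wild libraries were above all 7 S. lycopersicum libraries (0.293% of all gene models), and nothing is read from this count because the rule used the same values. The median coefficient of variation between libraries was 39.3% in S. pennellii, 35.6% in S. pimpinellifolium and 38.4% in S. habrochaites, against 66.8% in S. lycopersicum, where the levels were lowest.

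**Figure D1:**
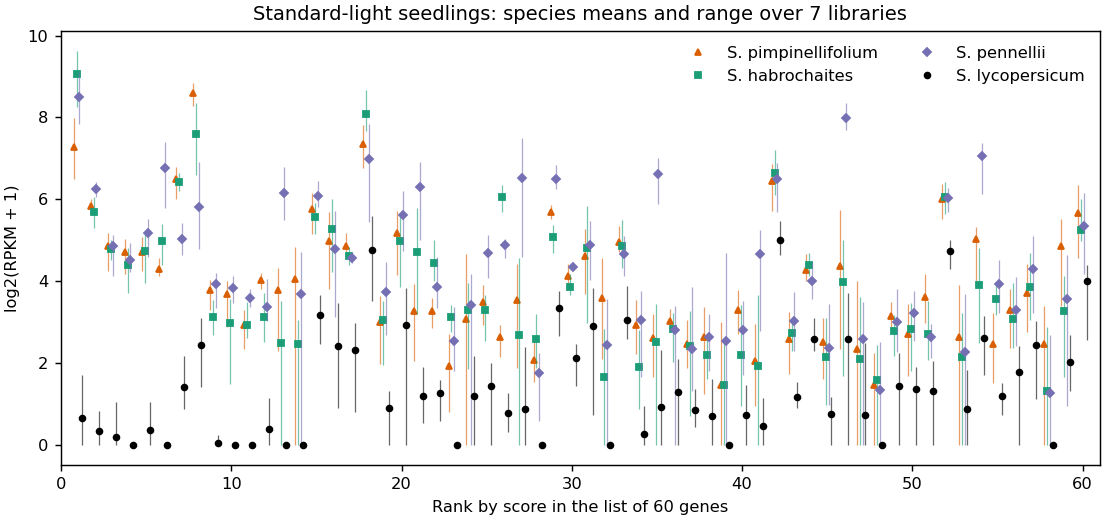
Level of each of the 60 genes in standard-light seedlings, as log2(RPKM + 1) on the vertical axis, against the rank of the gene by score on the horizontal axis. Each symbol is the mean of 7 libraries of 1 species and each line runs over their range; the black S. lycopersicum points lie below the 3 wild means in every gene because the rule required it, and the gap narrows from a score of 6.63 on the left to 1.25 on the right.

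The number ranges of the run records in the labels form 3 run blocks among the seedling libraries, with 14, 12 and 2 of them, and the labels do not say what sets them apart. Scored within the first block alone, all 60 genes stayed above 0, with a median score of 1.75 and a lowest score of 0.57. Within the second block 58 genes stayed above 0, with a median of 1.52 and a lowest score of -0.59. The third block holds only S. habrochaites libraries and gives no score. The blocks are parts of the libraries that chose the genes, so nothing about the list is read from these scores.

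The 24 tissue libraries took no part in choosing the genes. In them S. pennellii was compared with S. lycopersicum by limma on log2(RPKM + 1), fitted over 22512 genes with at least 1 RPKM in 2 or more of the 24 libraries, with 1 mean per tissue of a species and a light effect shared by the tissues of that species. Adjusted p-values are Benjamini-Hochberg values over all genes tested, and a call needed an adjusted p under 0.05 together with a log2 difference of at least 1 in size. All 60 genes passed the filter on low values. For 9 of them no S. lycopersicum library reached 1 RPKM, so they passed only through S. pennellii, and 47 would have passed through S. lycopersicum alone. For those 9 a call could only be higher in S. pennellii, and they are kept in all counts below.

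The lower level in the cultivated species was also found in the tissue libraries. Averaged over the 6 tissues, 40 of the 60 genes were called higher in S. pennellii, where 3.98% of all genes tested were, and 1 was called lower, where 6.61% were. The median log2 difference, S. pennellii minus S. lycopersicum, was 1.64 over the 60 genes and -0.10 over all genes tested. It was 1.66 with groups at 0 reads set to their bound, a floor of 3 reads over the group. Of the 60 genes, 51 had a positive difference. On these values 27 genes were higher in S. pennellii in all 12 pairs of libraries matched for tissue and light (2.3% of all genes tested), and 0 were lower in all 12 (3.9%). In 15 genes the lowest of 12 S. pennellii libraries was above the highest of 12 S. lycopersicum libraries (0.493%). The counts were not taken without the 9 genes that passed the filter only through S. pennellii.

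Solyc12g088180.1.1 again showed the largest difference. It had 677 and 514 RPKM in S. pennellii seedlings under shade and sun, 406 and 268 in leaf, 653 and 474 in root, 1399 and 813 in stem, 629.8 and 797 in inflorescence, and 428 and 295 in vegetative meristem. The corresponding S. lycopersicum libraries, in the same order, had 0.686 and 0, 0.355 and 4.65, 0 and 0.742, 0 and 0, 0.664 and 0.653, and 2.72 and 0 RPKM. The gene was thus among the more abundant transcripts of the list in every S. pennellii tissue and close to the level of single reads in most M82 libraries. The 12 S. pennellii libraries held 14147 of its reads and the 12 S. lycopersicum libraries 21. The mean over tissues was 613 RPKM in S. pennellii and 0.873 RPKM in S. lycopersicum, a ratio of means of 702 (log2 difference of the values with 1 RPKM added 8.46 ± 0.25 SE, adjusted p = 3.1e-12, limma). The ratio rests on few S. lycopersicum reads and was 1157 without the S. lycopersicum leaf sun library. It was called higher in each of the 6 tissues.

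Solyc08g005160.1.1 had the next largest mean difference. Its lowest, median and highest library had 45.6, 108 and 202 RPKM in S. pennellii, against 0, 0 and 3.82 RPKM in S. lycopersicum. No read was found in the S. lycopersicum seedling, leaf, root and stem libraries, and 5 reads in the other 4 libraries. The log2 difference of the mean over tissues was 6.22 ± 0.20 SE (adjusted p = 7.8e-12, limma). In seedling it was at least 22.4-fold higher in S. pennellii, and in root at least 50.4-fold, against a floor of 3 reads over the 2 S. lycopersicum libraries. Its model is short, at an implied 183 bases, so the high RPKM values of S. pennellii stand for 696 reads over 12 libraries.

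Solyc06g048530.2.1 was the most even of the genes named here. Its lowest, median and highest library had 48.0, 60.02 and 100.02 RPKM over the 12 S. pennellii libraries, against 0, 0 and 0.326 RPKM over the 12 S. lycopersicum libraries. The groups held 1821 reads in S. pennellii and 2 in S. lycopersicum. The gene passed the filter only through S. pennellii, so a call could only be higher in that species. It had the second largest difference in leaf, where it was at least 103-fold higher in S. pennellii (log2 difference 6.06 ± 0.31 SE, adjusted p = 9.9e-08, limma), and in vegetative meristem, where it was at least 117-fold higher (6.01 ± 0.31 SE, adjusted p = 4.8e-08). In stem the second place went to Solyc09g007940.2.1, with 328 and 372 RPKM under shade and sun in S. pennellii and 0.731 and 0.468 RPKM in S. lycopersicum (log2 difference 7.78 ± 0.32 SE, adjusted p = 4.8e-09, limma).

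**Figure D2:**
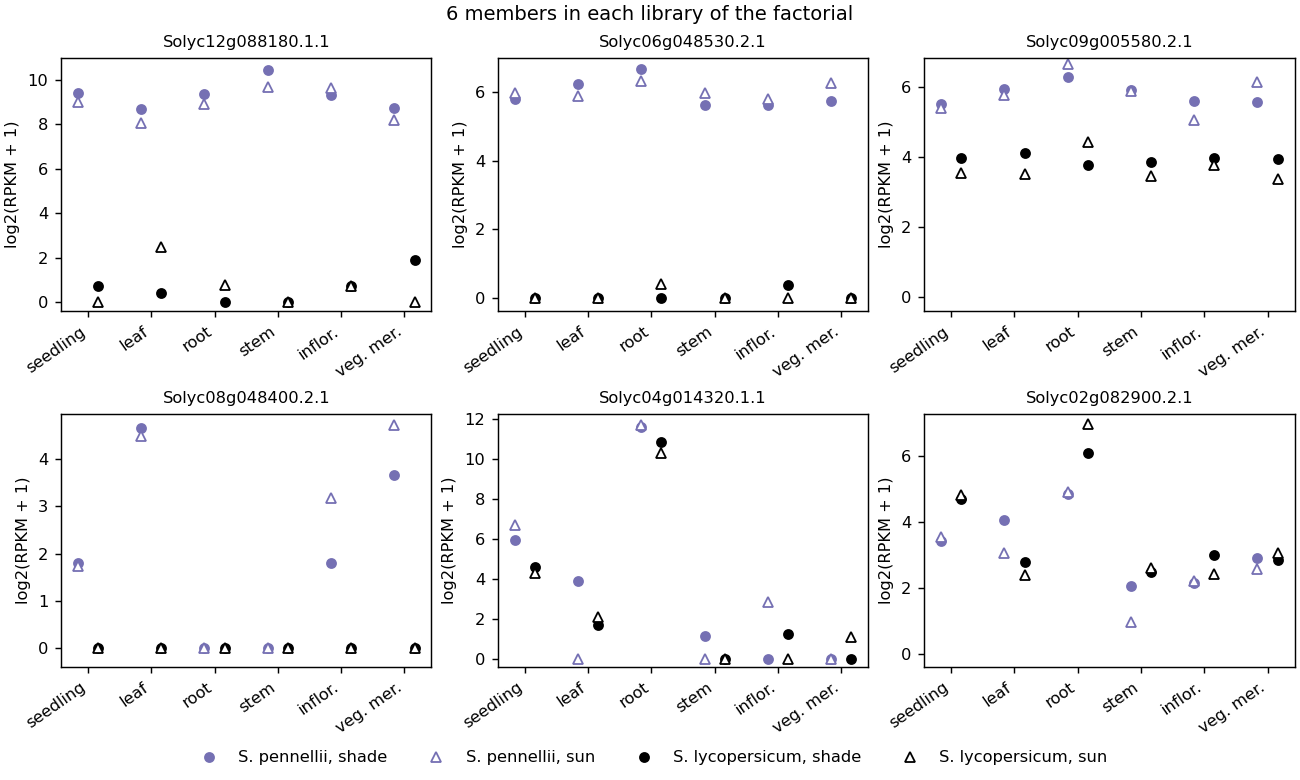
Level of 6 of the 60 genes in each tissue library, as log2(RPKM + 1) on the vertical axis with its own range per panel, against the tissue; violet symbols are S. pennellii and black symbols S. lycopersicum, with circles for shade and triangles for sun. The upper row shows genes that were higher in S. pennellii in all 12 matched pairs, and the lower row a gene with 0 reads in the 12 S. lycopersicum libraries, a gene that peaked in roots of both species, and a gene that was lower in S. pennellii seedlings and roots.

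By tissue, the count of genes called higher in S. pennellii was 33 in seedling (3.75% of all genes tested were called higher there), 30 in leaf (4.01%), 30 in root (5.07%), 28 in stem (4.98%), 22 in inflorescence (2.54%) and 32 in vegetative meristem (2.73%). The counts called lower were 2 in seedling (6.97% of all genes tested), 0 in leaf (5.51%), 1 in root (5.98%), 1 in stem (7.13%), 1 in inflorescence (6.12%) and 0 in vegetative meristem (2.95%). In leaf and vegetative meristem limma on recovered reads with voom also called 0 lower, and 0 genes were lower at an unadjusted p under 0.05. Both S. pennellii libraries of a tissue lay above both S. lycopersicum libraries for 45 of the 60 genes in seedling (18% of all genes tested), 38 in leaf (19.9%), 42 in root (25.6%), 36 in stem (19.5%), 32 in inflorescence (15.8%) and 46 in vegetative meristem (24.9%). The median log2 difference of the 60 genes was 1.95 in seedling, 1.67 in leaf, 1.62 in root, 1.46 in stem, 0.96 in inflorescence and 2.06 in vegetative meristem. Over all genes tested the medians of these tissues were -0.14, 0, 0, -0.05, -0.24 and 0. Whether the smaller median in inflorescence differs from the other tissues was not tested for the list. The count in vegetative meristem moved with single libraries: it was 18 without the S. pennellii shade library, 20 without the S. pennellii sun library and 18 without the S. lycopersicum sun library.

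The genes fell into those that were higher in S. pennellii throughout and those that were higher in some tissues. Called higher in all 6 tissues were 17 of the 60 genes, where 0.435% of all genes tested were. A further 27 were called higher in 1 to 5 tissues, which makes 44 with at least 1 such call (13.2% of all genes tested). No call in either direction was made in any tissue for 13 genes (67.1% of all genes tested), and 4 were called lower in at least 1 tissue (20.8%). All 13 genes with no call ranked 24th or lower by score.

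The size of the seedling score and the tissue difference went together across the 60 genes, as a description with no test, since genes are not independent replicates. Spearman's rho between the score and the mean difference over tissues was 0.66, and between the score and the difference in the tissue experiment's own seedlings it was 0.63. Of the 20 genes ranked first by score, 19 were called higher in the mean over tissues and 13 in all 6 tissues, with a median log2 difference of 3.17. Of ranks 21 to 40, 13 were called higher in the mean and 4 in all 6 tissues, with a median of 1.34. Of ranks 41 to 60, 8 were called higher in the mean and 0 in all 6 tissues, with a median of 0.59.

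**Figure D3:**
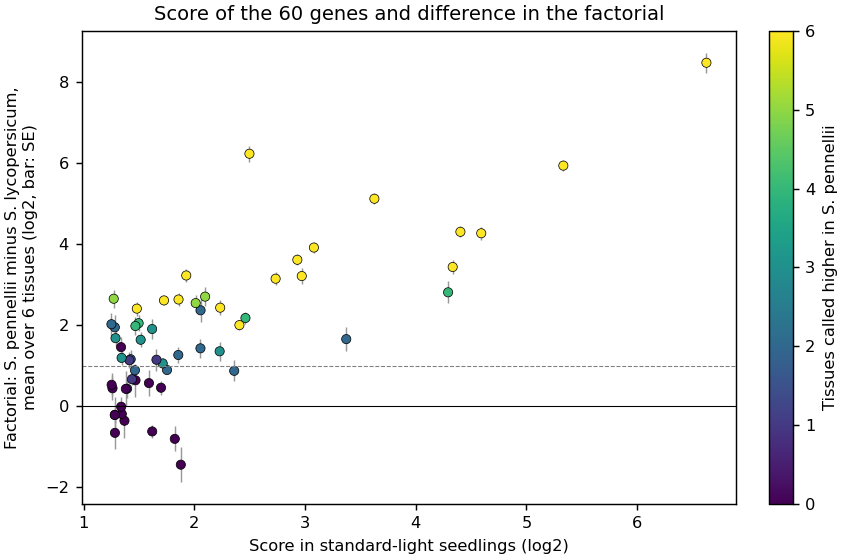
Log2 difference, S. pennellii minus S. lycopersicum, averaged over 6 tissues with its standard error, on the vertical axis, against the score in standard-light seedlings on the horizontal axis, 1 point per gene, coloured by the number of tissues in which the gene was called higher in S. pennellii. Of the genes called higher in all 6 tissues, 13 are among ranks 1 to 20 by score and 4 among ranks 21 to 40. The points below the line at 0 all have scores under 2.

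**Figure D4:**
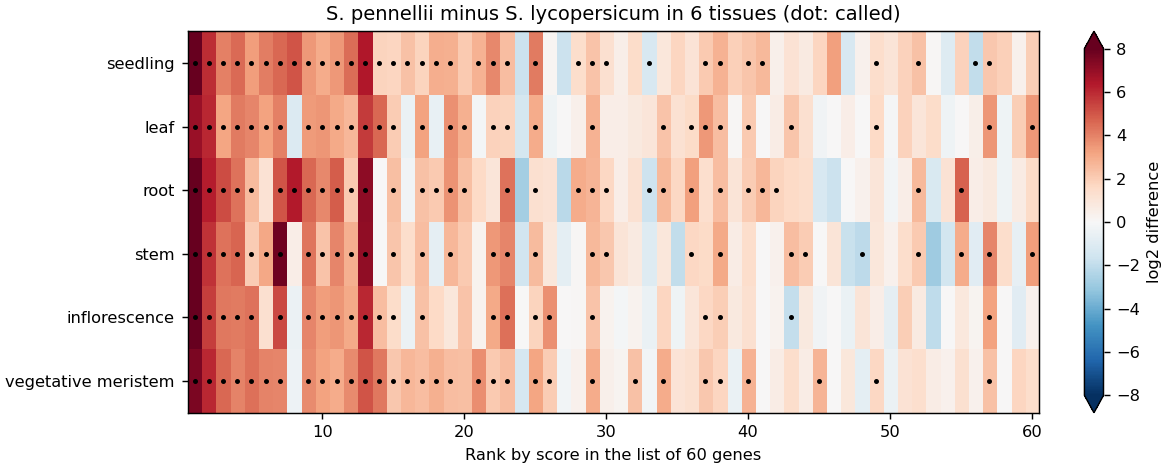
Log2 difference, S. pennellii minus S. lycopersicum, of each of the 60 genes in 6 tissues, with the genes in the order of their score from left to right and the tissues as rows; red is higher in S. pennellii, blue is lower, and a dot marks a call in either direction. Dots run down all 6 rows for 17 genes, most of them on the left, and blue cells with a dot occur only for 4 genes.

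The tissue in which each gene was most abundant is given here for each species as a description, with no test between species. In S. pennellii the highest mean was in root for 19 genes, in vegetative meristem for 11, in inflorescence for 9, in stem for 8, in seedling for 7 and in leaf for 6. In S. lycopersicum 57 genes had a read in some tissue, and the highest mean was in root for 18 of them, in inflorescence for 17, in seedling and leaf for 6 each, and in stem and vegetative meristem for 5 each. The highest tissue was the same in both species for 26 of these 57 genes. No share over all genes was taken for this count, and some highest tissues of S. lycopersicum rest on as little as 1 read. Levels differed between the tissues of S. pennellii in 41 genes by an F test (limma, adjusted p under 0.05; 60.5% of all genes tested) and between the tissues of S. lycopersicum in 37 (66% of all genes tested), with 32 genes in both counts. The shares for each species lie near the background. For the 32 genes in both counts no share over all genes was taken. In S. pennellii 37 genes averaged at least 1 RPKM in every tissue.

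A low level in M82 seedlings under standard light did not, for some genes, mean a low level in all M82 tissue libraries. In the tissue experiment 22 of the 60 genes averaged at least 10 RPKM in some S. lycopersicum tissue, and 12 stayed under 1 RPKM in every one. In the whole seedlings of that experiment 12 genes averaged at least 10 RPKM, and 4 had done so in standard-light seedlings. The count of 22 therefore cannot be read as a difference between organs alone, and no share over all genes was taken. Of the 12 genes with 0 reads in the 7 standard-light S. lycopersicum libraries, 9 had reads in the tissue libraries of the same strain, and 2 of those averaged at least 10 RPKM in some tissue. The 3 genes with 0 reads in all 12 S. lycopersicum tissue libraries, named for this after their values were seen, were Solyc10g005120.1.1, Solyc08g048400.2.1 and Solyc06g036470.1.1. The first was found in every S. pennellii tissue library, between 5.30 and 31.1 RPKM. In total it was at least 148-fold higher there, against a floor of 3 reads over 12 libraries. It was chosen for its 0 reads in S. lycopersicum, so its direction was fixed and no p-value is given.

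Solyc04g014320.1.1, the gene of highest mean level in S. lycopersicum tissues, was near absent from standard-light seedlings and abundant in roots. Its lowest, median and highest standard-light library had 0, 0 and 7.09 RPKM in S. pimpinellifolium, 0, 1.47 and 5.13 RPKM in S. habrochaites, and 0, 1.69 and 24.9 RPKM in S. pennellii, against 0 reads in S. lycopersicum. In roots under shade and sun it had 3065 and 3292 RPKM in S. pennellii, against 1852 and 1282 RPKM in S. lycopersicum. In the seedlings of the tissue experiment it had 61 and 102 RPKM in S. pennellii, against 23 and 18.7 RPKM in S. lycopersicum. The species did not overlap in either tissue, but the differences were not called. The log2 difference was 1.04 ± 1.01 SE in root (adjusted p = 0.59, limma) and 1.88 ± 1.01 SE in seedling (adjusted p = 0.25, limma). The SE comes from all tissues of both species, not from the root or seedling libraries alone. In S. pennellii leaf the gene had 15 and 0 reads under shade and sun, which also count in that SE. The place of the gene in the list rests on standard-light reads, 27 in S. pennellii, 11 in S. pimpinellifolium and 9 in S. habrochaites.

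Solyc12g057110.2.1, second by level in S. lycopersicum tissues, was expressed in all libraries of both species. Its lowest, median and highest tissue library had 73.2, 117 and 198 RPKM in S. pennellii, against 26.9, 75.2 and 124 RPKM in S. lycopersicum, and the ranges overlapped. Its log2 difference over tissues was 0.66 ± 0.14 SE (adjusted p = 0.0016, limma), under the size needed for a call. The 1 tissue in which it was called was root, where it had 128 and 139.9 RPKM under shade and sun in S. pennellii and 26.9 and 55.7 RPKM in S. lycopersicum (log2 difference 1.76 ± 0.34 SE, adjusted p = 0.0028).

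Seedlings appear in both experiments, which differ in light and, per the labels' protocols, in extraction, with Trizol for the tissue experiment and a Qiagen kit for the other. These cannot be told apart. In S. pennellii the mean of the 2 seedling libraries of the tissue experiment was above the highest of the 7 standard-light libraries for 8 genes (15.6% of all genes tested) and below the lowest for 17 (18.3%). In S. lycopersicum it was above the highest for 18 genes (30.1%) and below the lowest for 4 (11.5%). The standard-light libraries chose the genes, so nothing about the list is read from these counts.

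The species difference itself varied between tissues for 14 of the 60 genes by the interaction F test (limma, adjusted p under 0.05; 8.46% of all genes tested). Of these, 3 were called higher in S. pennellii in all 6 tissues and 10 in 1 to 5 tissues. The tissue of the largest difference was root and stem for 3 genes each, and seedling, leaf, inflorescence and vegetative meristem for 2 each, with counts of 2 or 3 in every tissue. Without the S. pennellii inflorescence shade library the count was 9, and with libraries matched for tissue and light as a block it was 7. In 2 of the 14 genes S. lycopersicum had 0 reads throughout, so there the test restates how the level varied between tissues of S. pennellii.

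The smallest adjusted p of the interaction was that of Solyc08g048400.2.1, at 0.00033. In S. pennellii it had 24.2 and 21.4 RPKM in leaf under shade and sun, 11.8 and 25.4 in vegetative meristem, 2.49 and 8.03 in inflorescence, 2.51 and 2.31 in seedling, and 0 reads in root and stem. S. lycopersicum had 0 reads throughout, which makes this 1 of the genes whose interaction p describes S. pennellii alone. It was at least 7.0-fold higher in S. pennellii leaf (log2 difference 4.57 ± 0.39 SE, adjusted p = 3.9e-06, limma), and no fold is given for root and stem. The gene passed the filter only through S. pennellii, so a call could only be higher in that species. The 12 S. pennellii libraries held 58 reads of this gene, whose model has an implied length of 153 bases.

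Solyc10g007960.1.1 was next, with an adjusted p of 0.00047 in the interaction test. Under shade and sun it had 13.8 and 18.1 RPKM in S. pennellii roots, against 1.89 and 1.38 RPKM in S. lycopersicum roots. In seedlings it had 4.94 and 7.43 RPKM in S. pennellii, against 0 and 0.319 RPKM in S. lycopersicum. In the 4 other tissues both species had 0 reads, so the interaction p sets root and seedling against tissues without reads. The gene was called higher in S. pennellii root (log2 difference 2.68 ± 0.28 SE, adjusted p = 1.9e-05, limma) and seedling (2.62 ± 0.28 SE, adjusted p = 4.2e-05), and its difference over all tissues, 0.88 ± 0.12 SE, was under the size needed for a call.

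A few genes of the list went the other way in the tissue experiment. In seedling, Solyc12g040570.1.1 had 1.41 and 3.24 RPKM under shade and sun in S. pennellii and 15.5 and 8.62 RPKM in S. lycopersicum (log2 difference -1.98 ± 0.47 SE, adjusted p = 0.014, limma). In the standard-light seedlings the same gene averaged 8.89 RPKM in S. pennellii and 2.47 RPKM in S. lycopersicum, the opposite order. The call was lost without the S. pennellii seedling shade library (log2 difference -1.48, adjusted p = 0.17) and without the S. lycopersicum seedling shade library (-1.52, adjusted p = 0.18). Over all 30 alternatives its adjusted p ran from 0.0069 to 0.18.

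Solyc02g082900.2.1 was lower in S. pennellii in 2 tissues. In seedling it had 9.63 and 10.8 RPKM under shade and sun in S. pennellii, against 25.2 and 27.4 RPKM in S. lycopersicum (log2 difference -1.29 ± 0.39 SE, adjusted p = 0.046, limma), and in root 27.9 and 29.2 RPKM in S. pennellii, against 67.3 and 126 RPKM in S. lycopersicum (-1.66 ± 0.39 SE, adjusted p = 0.012). In standard-light seedlings it averaged 24.4 RPKM in S. pennellii and 7.27 RPKM in S. lycopersicum. The seedling call was lost in 19 of 30 alternatives, the block of matched libraries among them (adjusted p = 0.088), with adjusted p-values between 0.033 and 0.31. The root call was lost without the S. pennellii root shade library (log2 difference -1.41, adjusted p = 0.13) and without the S. lycopersicum root sun library (-1.16, adjusted p = 0.14), in a range of 0.0011 to 0.14.

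In stem, Solyc03g116070.1.1 had 29.8 and 8.53 RPKM under shade and sun in S. pennellii, against 79.1 and 66.3 RPKM in S. lycopersicum (log2 difference -2.10 ± 0.55 SE, adjusted p = 0.020, limma). Its roots had 119 and 87.3 RPKM in S. pennellii and 99.4 and 62.4 RPKM in S. lycopersicum, which overlapped. Its seedling score rested on 7, 7 and 5 reads in the 3 wild species, and the stem call was lost with a pseudocount of 0.1 (adjusted p = 0.29), with the block of matched libraries (adjusted p = 0.058) and without the S. pennellii stem sun library (log2 difference -1.55, adjusted p = 0.20), the S. lycopersicum stem shade library (-2.12, adjusted p = 0.12) or the S. lycopersicum stem sun library (-2.08, adjusted p = 0.075), in a range of 0.015 to 0.29.

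In inflorescence, Solyc01g058520.2.1 had 8.01 and 11.9 RPKM under shade and sun in S. pennellii, against 80.4 and 18.8 RPKM in S. lycopersicum (log2 difference -1.90 ± 0.55 SE, adjusted p = 0.044, limma). In stem it had 6.33 and 9.68 RPKM in S. pennellii, against 0.344 and 0.881 RPKM in S. lycopersicum, and was called higher (2.48 ± 0.55 SE, adjusted p = 0.0082), as it was in leaf. The inflorescence call was lost in 21 of 30 alternatives, the block of matched libraries among them (adjusted p = 0.069), with adjusted p-values between 0.0015 and 0.41. Without the S. lycopersicum inflorescence shade library, the one at 80.4 RPKM, the log2 difference was -0.64.

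The gene called lower in the mean over tissues was Solyc11g069900.1.1. Under shade and sun its stems had 54.5 and 27.8 RPKM in S. pennellii, against 118 and 106 RPKM in S. lycopersicum, and its roots had 4.58 and 0 RPKM in S. pennellii, against 16 and 13.1 RPKM in S. lycopersicum. The mean over tissues was 7.75 RPKM in S. pennellii and 23.4 RPKM in S. lycopersicum (log2 difference -1.44 ± 0.43 SE, adjusted p = 0.017, limma), and S. pennellii was the higher in 1 of 12 matched pairs. The next lowest, Solyc05g052230.1.1, averaged 1.20 RPKM in S. pennellii and 2.83 RPKM in S. lycopersicum and was not called (-0.81 ± 0.31 SE, adjusted p = 0.051, limma). These means rest on few reads, since this gene had at most 5 in any tissue library of either species. It was called lower with a pseudocount of 0.1 (adjusted p = 0.038) and without the S. pennellii seedling shade library (log2 difference -1.12, adjusted p = 0.00036), in a range of 0.00036 to 0.12. In standard-light seedlings it had averaged 90.9 RPKM in S. pennellii, the highest of the wild species, against 0.830 RPKM in S. lycopersicum.

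Light left no called change on these genes. By limma, 0 of the 60 were called between shade and sun in S. pennellii (0.00888% of all genes tested were called higher and 0% lower) and 0 in S. lycopersicum (0% in both directions). Unadjusted p-values under 0.05 were found for 5 genes in S. pennellii (6.21% of all genes tested) and 3 in S. lycopersicum (5.5%). Voom on the recovered reads also called 0 in both species. The smallest adjusted p was 0.58 in S. pennellii and 0.86 in S. lycopersicum. The light term was fitted as shared by the 6 tissues of a species, so a response in 1 tissue alone could be missed.

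The IDs carry a chromosome number, and the 60 genes were spread over 12 chromosomes. Chromosome 8 held 11 of them (18.3%, against 7.19% of all gene models) and chromosome 6 held 10 (16.7%, against 8.42%). Chromosomes 1 and 9 held 7 each, and chromosome 5 held 1. These shares are given as a description, since the list was not drawn for position and no test was made. In the order of the IDs, 1 pair of members had 0 gene models between them and 2 pairs had at most 10.

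That pair was Solyc09g005580.2.1 and Solyc09g005590.2.1, and Solyc09g005520.2.1 stood before them with 4 gene models between. In standard-light seedlings Solyc09g005580.2.1 averaged 53.8 RPKM in S. pimpinellifolium, 46.7 RPKM in S. habrochaites and 67.3 RPKM in S. pennellii, against 8.0 RPKM in S. lycopersicum. Its neighbour averaged 35.1, 30.6 and 48.0 RPKM in the same wild species, against 6.61 RPKM in S. lycopersicum. Both were detected in the cultivated species. Solyc09g005580.2.1 had 4 to 8 reads in each standard-light S. lycopersicum library and its neighbour 0 to 9, so their ratios to the wild species rest on few reads.

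In the tissue libraries Solyc09g005580.2.1 had lowest, median and highest values of 32.4, 55.5 and 100.4 RPKM in S. pennellii, against 9.45, 13.1 and 20.8 RPKM in S. lycopersicum, with no overlap. The difference was called in each tissue, and the ratio of the means over tissues was 4.3 (log2 difference 2.0 ± 0.13 SE, adjusted p = 2.2e-08, limma). Solyc09g005590.2.1 had 17.2, 53.8 and 118 RPKM in S. pennellii, against 2.12, 13.2 and 22.1 RPKM in S. lycopersicum, and a ratio of the means over tissues of 5.43 (log2 difference 2.36 ± 0.28 SE, adjusted p = 1.4e-05). It was called in leaf and root. Solyc09g005520.2.1 was not called in any tissue (mean over tissues 0.52 ± 0.29 SE, adjusted p = 0.17).

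The stretch of 26 gene models in ID order that runs from Solyc09g005520.2.1 past this pair to the next member, chosen after the values were seen, held 4 members. Of its other gene models 17 were tested in the tissue libraries, with log2 differences of the mean over tissues between -0.87 and 0.64 and a median of -0.33. Limma called 0 of them in either direction, where 3.98% of all genes tested were called higher and 6.61% lower. An unadjusted p under 0.05 was found for 6 (46.3% of all genes tested), and voom on the recovered reads called 3. Near-identical gene copies may share reads, and whether that bears on a pair of neighbours was not tested.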

How the data were processed

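Messenger RNA libraries of 28 standard-light seedling samples and 24 tissue samples were sequenced. The authors deposited 1 table of RPKM, and all 52 value columns were used. The submitters' processing notes name CASAVA 1.4 and BWA 0.5.7. The reference, the counting rule, the pooling of runs and the treatment of reads with several matches are not stated there. Sequence differences between a species and that reference could change its counts, which was not tested.

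Whole reads were recovered from the steps of the deposited RPKM. Within 0.02 reads every value above 0 (100%) was whole, over 25942 gene models, and 2356 models were at 0 throughout. In simulated data, 99.9989% of the values above 0 were returned with the read number that was drawn.

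Tests used limma 3.58.1 in R 4.3.3 on log2(RPKM + 1), a scale that understates changes of low genes, with a trended prior, robust estimation, 10 residual degrees of freedom and Benjamini-Hochberg adjustment. In simulated data, 98.5% of 200 genes changed 4-fold were recovered in the mean over tissues, and 27% to 43% in single tissues. False calls numbered 1 in the mean over tissues and 3 to 33 in single tissues. The changed genes were drawn without those of low mean level, and the same spread was set for all genes. These shares therefore need not hold for the low genes of the list. Alternatives were voom on the recovered reads, a pseudocount of 0.1, median-ratio scaling, quantile normalization, no filter and leaving out each library. A fit with libraries matched for tissue and light as a block (6 residual degrees of freedom) was added after seeing the data. Groups at 0 were set against a floor of 3 reads over the group, for counting error only.

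The 60 genes and the lists were chosen with earlier results of these data known. Genes were named by rule: the 2 highest scores, the 2 last inside and 2 first outside the list, the 2 largest differences per direction among called genes without overlap and with at least 5 RPKM, the 2 smallest interaction p-values, the highest levels, the 2 lowest means, and neighbouring IDs.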

Additional observations from a re-analysis of the deposited data

Results flagged for a closer look

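The 7 standard-light libraries of each species were searched for a single library far from the others, in the 20 genes named by rule. These libraries also chose the genes, so the values are a description. Of 76 groups of 7 libraries, 7 had such a library. Chance gives about 1 in 20 for normally spread values, a rate that need not hold where reads are few. For Solyc02g082900.2.1, S. pimpinellifolium library 13 stood at 40.03 RPKM with the next at 31.4, and S. lycopersicum library 4 at 13.7 RPKM with the next at 7.16. For Solyc06g072240.1.1, S. habrochaites library 18 stood at 63.0 RPKM with the next at 34.7. For Solyc10g007960.1.1, the same library stood at 11.6 RPKM with the next at 4.71. For Solyc04g014320.1.1, S. pennellii library 24 stood at 24.9 RPKM with the next at 3.6, on 22 and 2 reads. For Solyc05g052230.1.1, S. habrochaites library 17 stood at 22.7 RPKM with the next at 7.36, on 9 and 2 reads, and S. lycopersicum library 4 at 4.26 RPKM with the next at 1.55, on 2 reads and 1 read.

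In 2 named genes the species difference (S. pennellii minus S. lycopersicum) varied between tissues by the limma interaction F test. The adjusted p was 0.000334 for Solyc08g048400.2.1, whose difference was largest in leaf, and it ran from 0.00014 to 0.013 over 30 alternatives. S. lycopersicum had 0 reads of this gene in its 12 tissue libraries, so this p describes the tissues of S. pennellii. The adjusted p was 0.000467 for Solyc10g007960.1.1, whose difference was largest in root, and it ran from 0.00017 to 0.028 over the alternatives. Outside root and seedling both species had 0 reads of it in the tissue libraries. This p therefore sets tissues with reads against tissues without, and the differences in root and seedling were close to each other.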

How the results depend on the processing

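The labels pair no libraries by replicate number. A replicate block of tissue libraries matched for tissue and light, chosen after seeing the data, gave 7 interaction calls in place of 14, and 41 calls in the mean over tissues. By tissue its counts were 29 in seedling, 27 in leaf, 29 in root, 27 in stem, 21 in inflorescence and 26 in vegetative meristem. Among named genes it lost 3 calls, each of a gene lower in S. pennellii. Membership of the list depended on how the score was made. Of the 60 genes, 27 were kept with a pseudocount of 0.1, 39 with a pseudocount of 5, and 28 when the smallest wild library was set against the largest S. lycopersicum library. Median-ratio scaling kept 58, run block 1 alone 44, run block 2 alone 42, and leaving out 1 library 51 to 59. The count called in the mean over tissues (41) was 41 to 44 under other scalings, pseudocounts, filters, voom and the block, and 40 to 42 with 1 library left out; the 40 genes called higher were all kept under those 6 settings. With 1 library left out, the counts ran from 24 to 37 in seedling, 20 to 30 in leaf, 24 to 32 in root, 20 to 32 in stem, 18 to 25 in inflorescence and 18 to 34 in vegetative meristem. The interaction count (14) ran from 9 to 16 with 1 library left out and from 7 to 19 under the other settings. The count of genes that differed between tissues of S. pennellii (41) ran from 35 to 44 with 1 library left out and from 28, with a pseudocount of 0.1, to 44 under the other settings. In S. lycopersicum (37) it ran from 31 to 37 and from 34 to 37, and the light counts stayed at 0. Where 1 of 2 libraries of a tissue was left out, the lone library was assumed to vary like the others. The median of all genes was 0 in seedling and -0.03 in inflorescence with median-ratio scaling, against -0.14 and -0.24 as reported. No named gene changed its direction after a call; over named genes and settings, 995 outcomes (called or not) were unchanged, 50 calls were lost and 5 gained. Depth limits genes of a few RPKM.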
